A study of Zea mays with 2 samples.

Results

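Loci of the maize genome that carry several entries at the same position were examined in endosperm of dek37 mutant kernels and of wild-type (WT) kernels. The members are the entries on chromosomes 1 to 10 whose chromosome, start and end are listed 2 or more times in the deposited table. There are 11641 such entries (20.5% of 56848) on 5496 loci (10.8% of 50685). The same entry was dominant in both genotypes in 93.0% of the 2780 loci with at least 10 RPKM in both libraries. In 82.4% of the 1205 loci where several entries could be compared, all of them differed between the genotypes in the same direction, or in 75.1% with the median difference of all entries set to 0. Among neighbouring single-entry loci, both had the same sign in 68.1% of 3839 pairs as deposited. Both lay on the same side of the median difference of all entries in 54.6%. RPKM is the abundance unit explained below.

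A stretch of a plant genome can give rise to more than 1 transcript. Alternative splicing, alternative starts and alternative ends produce isoforms of a gene, and genes can also be nested within each other or overlap on opposite strands. In many genes a single isoform makes up most of the RNA. Maize endosperm fills with starch and storage proteins during this stage of kernel development, and dek (defective kernel) mutants disturb that process. The DEK37 gene encodes a mitochondrial protein of the pentatricopeptide repeat family, RNA-binding proteins that act on organelle transcripts, and its known role is in intron splicing.

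RNA was taken from endosperm at 18 days after pollination, with 1 library from dek37 kernels and 1 library from WT kernels. The labels give no allele, no genetic background and no number of kernels or plants. With 1 library per genotype the differences below describe these 2 libraries, have no replicate check and carry no p-value. In RNA of a whole tissue, fewer cells of a type and less RNA per cell cannot be told apart. Values are RPKM, reads divided by the length of the entry and by the total reads of the library, so that levels of entries with different lengths can be set side by side. The totals read back from the values were 19106174 reads for dek37 and 18139532 reads for WT. The entries have positions but no gene names, and the sources used here name neither the genome build nor what an entry is, a transcript or a gene. No sequence, exon, intron or UTR is therefore given for any locus, and marker genes of endosperm could not be looked up.

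Most of these loci held few entries. A total of 4958 loci had 2 entries, 458 had 3, 60 had 4, 11 had 5, 8 had 6 and 1 had 8. The loci were longer than those with a single entry, with a median span of 4242 bp (quartiles 2333 and 7601 bp) against 1891 bp over 45009 single-entry loci of the same chromosomes. Their entries were also more abundant. The median member had 4.61 RPKM in dek37 and 3.33 RPKM in WT, whereas the median single-entry locus had 2.07 RPKM in dek37 and 1.47 RPKM in WT. Members made up 20.5% of all entries and took 25.3% of the summed RPKM in dek37 and 23.8% in WT.

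The files list the entries of a locus far apart. Consecutive entries of a locus stood on adjacent rows in 401 of 6145 cases (6.53%), and the median distance was 17755 rows. The pairing of rows between the 2 files was checked through entry length, since an entry has the same length in both libraries. With rows paired in order, a length no greater than the span gave whole reads in both libraries for 11633 of 11641 members (99.93%). When each dek37 value was paired with the WT value of the next entry of the same locus, this held for 787 (6.76%). These lengths are the smallest that fit, with a median of 466 bases over members. In 232 of 5488 loci (4.23%) the lengths summed to more than the span, so that entries of these loci must share bases if their bases lie within it. The sources used here do not give how reads falling on 2 entries were counted.

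A single entry led most loci. Among the 2780 loci whose summed level was at least 10 RPKM in both libraries, the dominant entry, that with the highest RPKM, held a median of 75.9% of the locus in dek37 (quartiles 61.0% and 93.2%) and 76.3% in WT (quartiles 60.8% and 93.0%). It held at least 90% in 826 loci in dek37 and in 819 loci in WT. The longer of 2 entries was the dominant one in 63.1% of 2407 loci in dek37 and in 62.9% in WT. Lengths here are the smallest that fit, and such a length can fall short more often where an entry has few reads. That would make weaker entries look shorter, so these shares cannot show whether length goes with dominance.

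The dominant entry was the same in both libraries in 2585 of the 2780 loci (93.0%) and differed in 195 (7.01%). In the loci with the same dominant entry its share moved by a median of 2.78 percentage points, and it was lower in dek37 in 1245 of 2585 (48.2%). Among 308 loci of 3 entries, all 3 kept their order in 232 (75.3%). A locus keeps its shares and its order under any rescaling of a whole library, but the loci that reach 10 RPKM change. Under 3 other scalings of dek37, 187 of 2635, 189 of 2696 and 188 of 2679 loci were switched.

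Most switches were between entries of nearly equal level. In the 195 loci the dominant entry held a median of 53.8% in dek37 and 53.5% in WT, against 78.4% in dek37 and 78.1% in WT in the other loci. Of the 2-entry loci, 133 of 528 (25.2%) were switched where the WT dominant entry held 50 to 60% of the locus, 18 of 443 (4.06%) at 60 to 70%, 7 of 348 (2.01%) at 70 to 80%, 2 of 346 at 80 to 90% and 0 of 746 above that. The order of 2 entries in a library was then set against the counting error of their reads, with exact (Clopper-Pearson) 95% binomial intervals. These intervals, and all intervals of single entries below, cover counting error only, since 1 library per genotype shows no spread between plants. Without molecular identifiers several reads can stem from 1 molecule, which would make the intervals too narrow. In 126 of the 195 loci the interval of the ratio of the 2 entries included equality in both libraries, and in 58 it excluded equality in only 1 library. In 11 loci (0.396% of 2780) it excluded equality in both, in opposite directions, and these are called supported switches. The intervals were not widened for the number of loci examined.

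**Figure D1:**
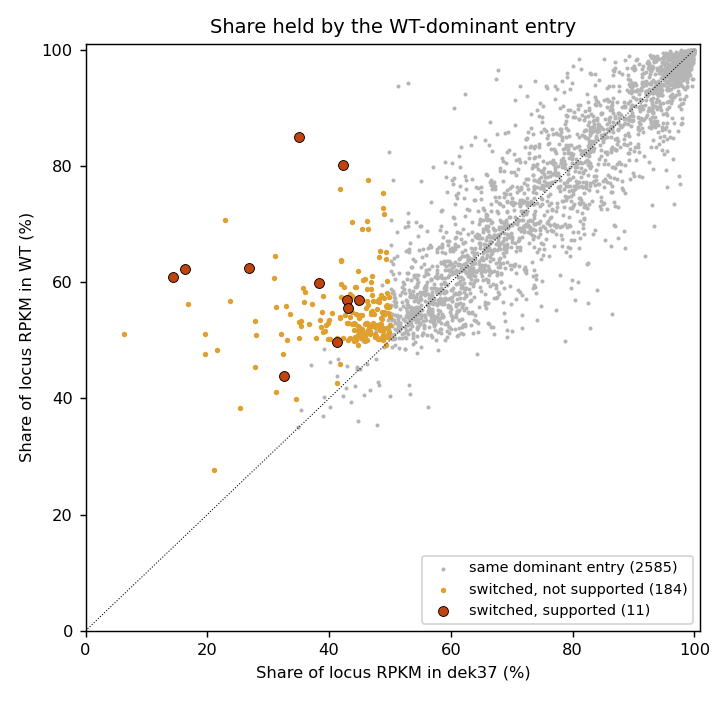
Share of the summed RPKM of a locus held by the entry that is dominant in WT, in dek37 (horizontal, %) and in WT (vertical, %), for 2780 loci with at least 10 RPKM in both libraries; each point is a locus. Grey points lie along the dotted line of equal shares, the 195 switched loci lie mostly near 50%, and the 11 loci whose order exceeded counting error in both libraries are drawn larger.

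The 11 supported switches lay on 7 chromosomes, 6 in loci of 2 entries and 5 in loci of 3. In 6 of them the entry that took over was higher in dek37 and the displaced entry was lower, and in 5 both were higher, by unequal amounts; with the median difference of all entries set to 0, these counts were 9 and 1, and in 1 locus both entries were lower. The summed level of the locus stayed within 2-fold in 9 and was at least 2-fold higher in dek37 in 2. By construction the WT dominant entry has a smaller share in dek37 in each of these loci, so its loss of share is no result. The 6 with the largest loss follow, with entries numbered by their order in the file.

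The widest shift was at chromosome 6, 159888496 to 159892251, a span of 3756 bp with 2 entries of similar fitted length (1420 and 1434 bases). Entry 1 had 13.8 RPKM in dek37 and 1.71 RPKM in WT, with a ratio of 8.07 (interval 5.17 to 13.2). Entry 2 had 7.45 RPKM in dek37 and 9.61 RPKM in WT, and its ratio of 0.775 (0.591 to 1.01) included equality. Entry 1 thus held 64.9% of the locus in dek37 and 15.1% in WT.

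At chromosome 2, 208123671 to 208130991, the 2 entries went opposite ways. Entry 1 had 69.0 RPKM in dek37 and 37.6 RPKM in WT (ratio 1.84, interval 1.52 to 2.22), whereas entry 2 had 11.5 RPKM in dek37 and 58.3 RPKM in WT (ratio 0.198, interval 0.158 to 0.245). The share of entry 1 was 85.7% in dek37 and 39.2% in WT, while the summed level was 80.5 RPKM in dek37 and 95.9 RPKM in WT. The locus at chromosome 3, 191124531 to 191185971, a span of 61441 bp, had the same pattern at lower levels. Its entry 1 had 17.0 RPKM in dek37 and 9.48 RPKM in WT. Its entry 2 had 3.35 RPKM in dek37 and 15.6 RPKM in WT, from 14 and 62 reads, so that its ratio of 0.214 has a wide interval (0.0797 to 0.496).

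A more abundant locus at chromosome 7, 172726699 to 172731206, had the reverse file order. Entry 1 had 56.1 RPKM in dek37 and 198 RPKM in WT (ratio 0.284, interval 0.252 to 0.318). Entry 2 had 153 RPKM in dek37 and 119 RPKM in WT, with a ratio of 1.29 (1.16 to 1.43), but with the median difference of all entries set to 0 it was slightly lower in dek37 (log2 difference -0.039). The share of entry 2 was 73.2% in dek37 and 37.5% in WT.

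On chromosome 1 there were 2 such loci. At 297372423 to 297379573, entry 1 had 51.3 RPKM in dek37 and 8.11 RPKM in WT (ratio 6.33, interval 5.05 to 8.02), while entry 2 had 37.7 RPKM in dek37 and 32.8 RPKM in WT (ratio 1.15, interval 1.02 to 1.30; lower in dek37 under each of 3 other scalings). At 644608 to 652202, a locus of 3 entries, entry 1 had 26.7 RPKM in dek37 and 14.3 RPKM in WT, and entry 3 had 16.9 RPKM in dek37 and 22.4 RPKM in WT. Entry 2 of that locus stayed below 1 RPKM in both libraries.

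**Figure D2:**
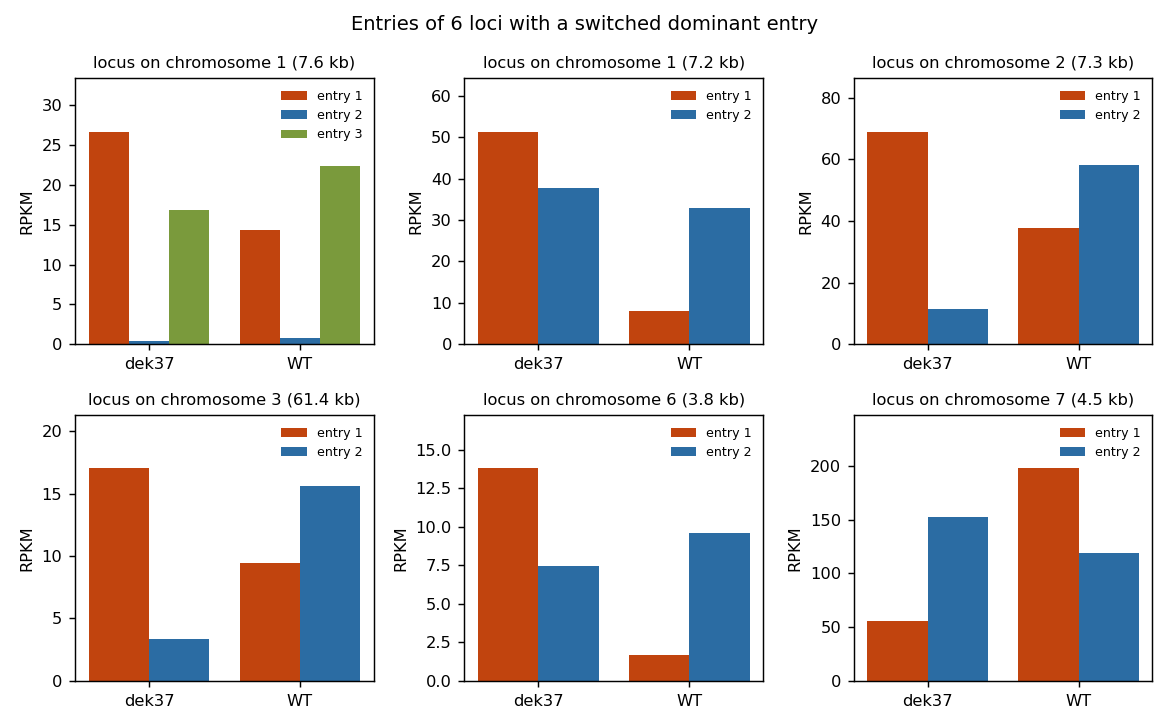
RPKM of each entry (bars, 1 value per library) in dek37 and in WT for the 6 loci with the largest loss of share among the 11 supported switches; panels have their own axes, all starting at 0. In each panel the tallest bar in dek37 belongs to another entry than the tallest bar in WT.

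The other 5 supported switches, read off after their values were seen, were closer. Their WT dominant entries held between 41.3% and 57.0% of the locus in 1 or the other library at chromosome 2, 44190672, chromosome 3, 12189233, chromosome 5, 216157899, and chromosome 8, 151902834, and 32.6% in dek37 against 43.8% in WT at chromosome 6, 35892952. In the 4 loci named first, both leading entries were higher in dek37 as deposited. At chromosome 3, 12189233 to 12194178, entry 2 had 37.9 RPKM in dek37 and 11.8 RPKM in WT, while entry 1 had 31.0 RPKM in dek37 and 16.8 RPKM in WT.

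Dominant entries can also gain or lose ground without being displaced. Among the 2585 loci with the same dominant entry, 36 had a share that differed by at least 20 percentage points, with 21 lower and 15 higher in dek37. The median WT share of their dominant entries was 78.7%.

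Agreement of the log2 differences was examined where 2 or more entries of a locus reached 10 RPKM in the higher library. The difference of an entry is its log2(RPKM + 1) value in dek37 minus that in WT. The added 1 RPKM understates changes of low entries. The condition was met by 1205 loci with 2469 entries, of which 1151 loci had 2 such entries, 50 had 3, 3 had 4 and 1 had 5. All entries had the same sign in 993 loci (82.4%), with 818 higher and 175 lower in dek37. The remaining 212 loci held both signs. Since the median difference of all 17017 entries that reach 10 RPKM was 0.39, sides of that median were counted as well. All entries lay above it in 469 loci and below it in 434, together 74.9%.

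The spread within a locus, the largest minus the smallest difference, had a median of 0.24 on the log2 scale (quartiles 0.10 and 0.46). It was under 0.25 in 615 loci and at least 1 in 70 (5.81%). The SD of the difference over the 2469 entries was 0.842, against 0.761 over all 17017. For the 1151 loci with 2 such entries, Pearson's r between their differences was 0.82 and Spearman's rho 0.73. Each pair entered in both orders. These are correlations across loci within 1 pair of libraries, where both entries share the libraries, the position and possibly reads.

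Neighbouring single-entry loci gave a comparison with 2 positions close together. Among 3839 pairs of adjacent single-entry loci that both reached 10 RPKM, at a median gap of 8305 bp, Pearson's r was 0.13 and Spearman's rho 0.13. Their median absolute difference was 0.49, against 0.23 within the 1151 pairs of 1 locus. Both members lay on the same side of the overall median in 75.8% of the pairs within loci and in 54.6% of the neighbouring pairs. Restricting neighbours to gaps of at most 2000 bp left 1151 pairs with an r of 0.21 and a median absolute difference of 0.46. No test was run on this contrast, because loci of 2 libraries are not replicates of a genotype.

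**Figure D3:**
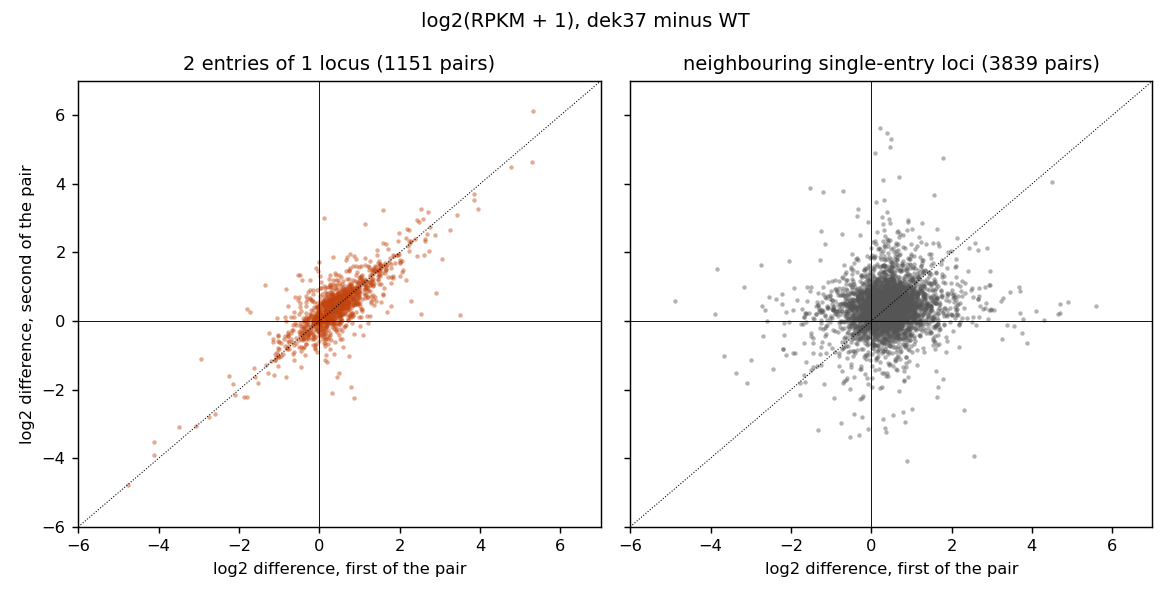
log2(RPKM + 1) in dek37 minus WT for the first of a pair (horizontal) and the second (vertical); left, 1151 loci with 2 entries that reach 10 RPKM, right, 3839 pairs of neighbouring single-entry loci. The left cloud follows the dotted line of equal differences (Pearson's r 0.82), and the right cloud does not (0.13).

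Depth moved with the agreement. In the 276 pairs with at least 200 reads for both entries in both libraries, the median absolute difference was 0.14 and r was 0.85, while 1332 neighbouring single-entry pairs of that depth had 0.40 and 0.18. By level of the weaker entry, the median absolute difference was 0.32 at 5 to 20 RPKM (634 pairs), 0.20 at 20 to 50 RPKM (313 pairs), 0.15 at 50 to 100 RPKM (124 pairs) and 0.11 at 100 RPKM or more (80 pairs). Counting intervals of the dek37 to WT ratio did not overlap between the 2 entries in 95 of the 1151 pairs (8.25%). In 20 pairs (1.74%) the interval lay above equality for 1 entry and below it for the other. Reads were taken at the smallest fitting number, which widens the intervals.

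Agreement was also split by the length of the locus and by overlap, and it did not follow length in steady steps. Pearson's r was 0.95 in 228 pairs at loci under 2000 bp, 0.83 in 467 pairs at 2000 to 5000 bp, 0.48 in 404 pairs at 5000 to 20000 bp and 0.59 in 52 pairs at longer loci. The median absolute differences of these classes were 0.22, 0.21, 0.28 and 0.30. Pearson's r also depends on how widely the differences range in a class, which was not compared. The 46 pairs whose lengths summed to more than the span had an r of 0.98 and a median absolute difference of 0.15, against 0.80 and 0.24 in the other 1105. Entries of those 1105 pairs can share bases too. The part of shared reads in this agreement was not tested.

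Lower partners agreed less. In 1173 2-entry loci, 1 entry reached 10 RPKM and the other peaked between 1 and 10 RPKM. Their signs matched in 801 (68.3%), about the share of 68.1% among neighbouring single-entry pairs that both reach 10 RPKM. Pearson's r was 0.42 and the median absolute difference was 0.47.

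The widest disagreement was at chromosome 2, 11197500 to 11205479. Entry 1 had 33.0 RPKM in dek37 and 1.997 RPKM in WT (174 and 10 reads), a ratio of 16.5 (interval 6.81 to 52.2). Entry 2 had 37.2 RPKM in dek37 and 32.9 RPKM in WT, and its ratio of 1.13 (0.983 to 1.30) included equality. The WT library thus held 1 entry at 94.3% of the locus, and the dek37 library held 2 at nearly equal level (47.0% and 53.0%). The locus at chromosome 1, 23241091 to 23250032, showed the same shape. Entry 2 had 14.4 RPKM in dek37 and 0.921 RPKM in WT (198 and 12 reads; ratio 15.7, interval 6.95 to 43.7), beside an entry 1 of 15.2 RPKM in dek37 and 13.97 RPKM in WT. These loci and the switched loci of chromosomes 2 (208123671) and 3 (191124531) have the 4 widest spreads, from 2.72 to 3.33, and were chosen for them. The companion entries with a ratio near 1, entry 2 at chromosome 2 and entry 1 at chromosome 1, were lower in dek37 under the 3 other scalings tried.

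Differences of at least 2-fold in opposite directions within a locus were found at 2 loci, and at 1 under each of the 3 other scalings. At chromosome 6, 1334626 to 1339388, entry 1 had 4.598 RPKM in dek37 and 13.4 RPKM in WT (34 and 94 reads), and entry 2 had 22.6 RPKM in dek37 and 10.4 RPKM in WT. Its dominant entry differed between the libraries, but the order was within counting error in at least 1 of them. This locus was named after its values were seen. The other is the 5-entry locus of chromosome 8 described below. It is the 1 locus that remained under each of the 3 other scalings, and the chromosome 6 locus did not.

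Partners of entries that were at least 2-fold different were counted by entry. Each pair within a locus entered in both orders, so a pair with both entries past 2-fold counts 2 times. These shares are therefore higher than shares of loci, which are given last. Among the 1151 pairs, 292 of 401 partners (72.8%) of entries at least 2-fold higher in dek37 were also at least 2-fold higher, and 52 of 79 partners (65.8%) of entries at least 2-fold lower were also at least 2-fold lower. The share among all 17017 entries was 14.8% for at least 2-fold higher values in dek37 and 3.07% for lower ones. Among neighbouring single-entry loci the corresponding counts were 236 of 1064 (22.2%) and 32 of 221 (14.5%). With the median difference set to 0 the counts within loci were 160 of 220 (72.7%) for higher and 86 of 149 (57.7%) for lower entries. Shares among all entries and among neighbours were not counted under that scaling. Of the 1205 loci, 150 had all entries at least 2-fold higher (83 with the median set to 0), 26 had all entries lower by that factor (44 with the median set to 0), 151 had some but not all entries past 2-fold in 1 direction (120 higher, 31 lower), and 876 had none.

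The largest joint increase in dek37 was at chromosome 1, 81440902 to 81442942, where entry 1 had 85.0 RPKM in dek37 and 1.16 RPKM in WT, and entry 2 had 145 RPKM in dek37 and 1.08 RPKM in WT. Both entries were near 1 RPKM in WT, from 20 and 14 reads, and the ratios of 73.6 (interval 39.8 to 154) and 134 (65.0 to 335) overlapped in their intervals. Entry 2 was dominant in dek37 and entry 1 in WT, where the order was within counting error. With a sum of 2.24 RPKM in WT, this locus is below the floor for counting switches. At chromosome 10, 90200516 to 90201913, entry 1 had 115 RPKM in dek37 and 1.98 RPKM in WT (ratio 58.3, interval 33.2 to 113). Entry 2 of that locus had 35.9 RPKM in dek37 and 0.476 RPKM in WT, where it rests on 4 reads. At chromosome 3, 227425325 to 227426759, the 2 entries had 81.4 and 94.6 RPKM in dek37 and 2.04 and 3.26 RPKM in WT. Its entry 1 rests on 2 reads in WT, and its interval runs from 6.78 to 1612.

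The largest joint decrease in dek37 was at chromosome 4, 201936215 to 201938145, a pair of abundant entries of nearly equal level. Entry 1 had 20.1 RPKM in dek37 and 571 RPKM in WT, so that the WT level was 28.3 times that of dek37 (interval 24.8 to 32.5). Entry 2 had 23.2 RPKM in dek37 and 669 RPKM in WT, with a WT level of 28.8 times that of dek37 (24.5 to 34.2). At this much lower level in dek37, entry 2 held 53.5% of the locus in dek37 and 54.0% in WT. At chromosome 3, 201092983 to 201095214, entry 1 had 3.69 RPKM in dek37 and 80.1 RPKM in WT, and entry 2 had 0.926 RPKM in dek37 and 27.97 RPKM in WT. At chromosome 1, 228402997 to 228404285, entry 1 had 3.02 RPKM in dek37 and 68.9 RPKM in WT, and entry 2 had 1.36 RPKM in dek37 and 26.3 RPKM in WT. In all 3 decreased loci the same entry was dominant in both libraries. The ratio intervals of the 2 entries overlapped in each of the 3 increased and 3 decreased loci.

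**Figure D4:**
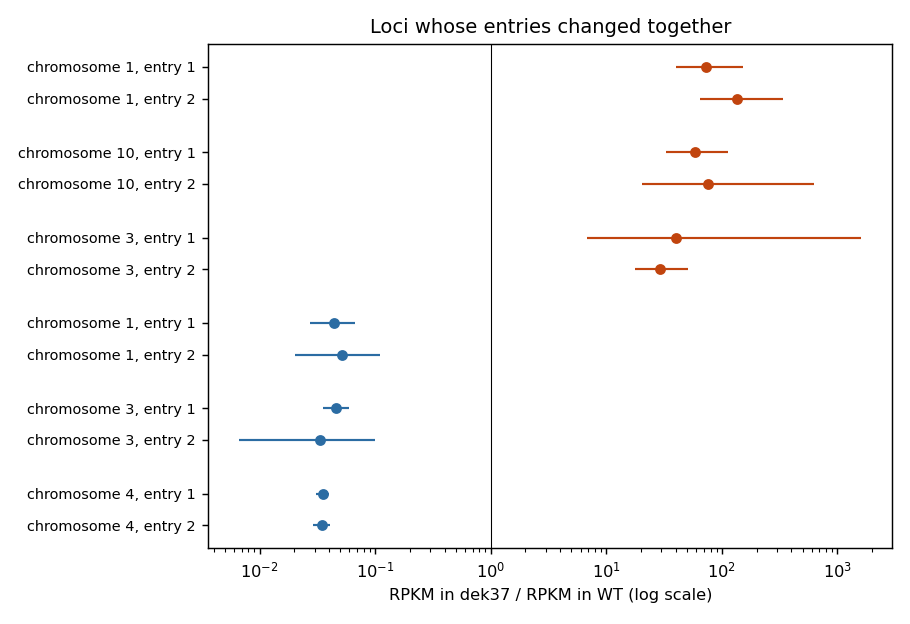
Ratio of RPKM in dek37 to RPKM in WT (points, log axis) with its 95% counting interval (lines) for both entries of the 3 loci with the largest joint increase and the 3 with the largest joint decrease; the vertical line marks equality. Intervals of the 2 entries of a locus overlap in all 6 loci.

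A few members stood at the lowest value in 1 library. A total of 21 members on 19 loci had at least 20 reads in dek37 and only the value of 1 read in WT, at a median of 2.60 RPKM in dek37. Of the 22 other entries at those loci, 18 were higher in dek37 (15 with the median of all entries set to 0), with a median difference of 0.85. Of all entries that reach 10 RPKM, 77.3% were higher in dek37 as deposited, and by construction their median splits them about evenly. The 18 are near the first share, and the 15 have the lower background of the even split. The other entries at those loci were not shown to reach 10 RPKM, so neither background is matched to them. Conversely, 8 members on 7 loci had the value of 1 read in dek37 and at least 20 reads in WT, at a median of 2.53 RPKM in WT. All 6 other entries there were lower in dek37, with a median of -1.497, beside the same unmatched share of 77.3% higher. Matching shares over all entries were not counted for the 21 and the 8 members, so these counts show nothing particular to loci with several entries. An entry without any read could carry the same lowest value in these files.

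The most abundant loci were also looked at apart. The 20 loci with a mean summed level of at least 1000 RPKM had the same dominant entry in both libraries, beside 93.0% of the 2780 loci. With only 20 loci this is near that share and shows no trait of abundant loci. In sum 4 of the 20 were lower by 2-fold or more in dek37, beside 2.97% of all loci. By that factor 1 was higher, beside 14.5% of all loci. With the median of all entries set to 0, 8 were lower and 0 higher, and the shares of all loci were not counted at that setting. Dominant shares in the 20 loci ran from 53.1% to 99.3% in dek37 and from 54.6% to 99.6% in WT. The highest by the mean of both libraries, at chromosome 2, 183342461 to 183343536, had an entry of 17221 RPKM in dek37 and 59613 RPKM in WT, with 99.3% of the locus in dek37 and 99.1% in WT. Its minor entry, of 117 RPKM in dek37 and 542 RPKM in WT, was lower as well. The WT level over that of dek37 was 4.64 (interval 3.55 to 6.14) for the minor entry and 3.46 (3.43 to 3.50) for the major one. These 2 intervals did not overlap.

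At chromosome 7, 18943733 to 18944704, the major entry had 6876 RPKM in dek37 and 24166 RPKM in WT, and the minor one had 521 RPKM in dek37 and 1504 RPKM in WT. The intervals of the WT over dek37 factors, 3.51 (interval 3.46 to 3.57) and 2.89 (2.66 to 3.14), did not overlap either. The major entry held 93.0% in dek37 and 94.1% in WT. At chromosome 1, 197267922 to 197271011, the 2 entries moved in near lockstep, with factors of WT over dek37 of 1.75 (1.73 to 1.77) and 1.76 (1.73 to 1.80). The major entry there had 3182 RPKM in dek37 and 5570 RPKM in WT, or 66.1% in dek37 and 66.0% in WT. At chromosome 1, 178476591 to 178478157, the entries had 20708 and 1422 RPKM in dek37 and 17534 and 1301 RPKM in WT. Both were higher in dek37 in the values as deposited, by log2 differences of 0.24 and 0.13, and lower under the 3 other scalings. Near-identical gene copies can share reads, so levels of single abundant entries are uncertain.

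Of the 20 abundant loci by summed level, the locus at chromosome 2, 20765568 to 20767537, was lower by the largest factor, with 817 RPKM in dek37 and 3576 RPKM in WT; it was picked after its values were seen. Its dominant entry held 55.0% in dek37 and 56.2% in WT. The abundant locus that was at least 2-fold higher in dek37, at chromosome 4, 133103720 to 133107109, had a summed level of 3841 RPKM in dek37 and 1585 RPKM in WT. Its dominant entry held 89.4% in dek37 and 88.7% in WT.

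Loci with many entries were long. The 80 loci of 4 or more entries had spans from 3450 to 166693 bp, with a median of 19248 bp. In the 61 of them with at least 10 RPKM in both libraries, the dominant entry held a median of 68.6% in dek37 and 70.7% in WT, 3 were switched, and the order exceeded counting error in none of the 3.

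The 8-entry locus at chromosome 7, 165824939 to 165909567, was led by entry 2, with 102 RPKM in dek37 and 94.4 RPKM in WT. Next in dek37 came entry 6, with 40.7 RPKM in dek37 and 27.2 RPKM in WT, and entry 3, with 36.6 RPKM in dek37 and 16.8 RPKM in WT. Entry 3 had the largest ratio of the 4 entries that reach 10 RPKM (2.18, interval 1.77 to 2.68), and entry 2 the smallest (1.08, interval 0.900 to 1.30). Entry 1 had 19.8 RPKM in dek37 and 12.1 RPKM in WT, and entry 4 had 6.68 RPKM in dek37 and 5.08 RPKM in WT. The other 3 entries were at 3.002 RPKM or less in dek37 and 1.87 RPKM or less in WT. The share of entry 2 was 48.8% in dek37 and 59.5% in WT. Its log2 difference of 0.11 was negative under the 3 other scalings.

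The 5-entry locus at chromosome 8, 118529129 to 118653539, was the least uniform of the loci with 4 or more entries that reach 10 RPKM. Entry 3 had 8.88 RPKM in dek37 and 19.3 RPKM in WT (ratio 0.459, interval 0.332 to 0.630), whereas entry 5 had 21.7 RPKM in dek37 and 7.18 RPKM in WT (ratio 3.02, interval 1.4996 to 6.59). Entry 4 led in both libraries, with 53.1 RPKM in dek37 and 38.4 RPKM in WT. Entries 1 and 2 had 11.8 and 14.7 RPKM in dek37 and 13.6 and 12.4 RPKM in WT, and both of their intervals included equality. The log2 difference of entry 2, 0.23, was negative under the 3 other scalings.

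**Figure D5:**
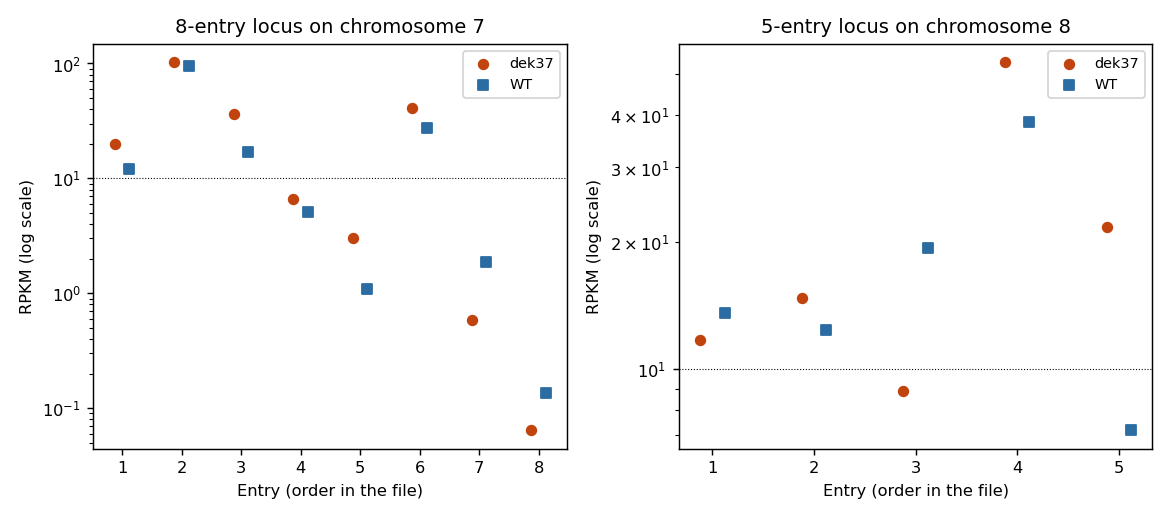
RPKM (log axis) of each entry in dek37 (circles) and WT (squares) for the 8-entry locus of chromosome 7 (left) and the 5-entry locus of chromosome 8 (right), entries in file order; the dotted line marks 10 RPKM. Entry 2 leads the left locus and entry 4 the right locus in both libraries.

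As a set, the members differed between the genotypes about as often as all entries. Of the 4248 members that reach 10 RPKM, 669 (15.7%) were higher by 2-fold or more in dek37, beside 14.8% of all entries, and 130 (3.06%) were lower, beside 3.07%. Higher entries thus made up 83.7% of the differing ones. With the median difference of all entries set to 0 there were 323 higher and 263 lower members, and higher ones made up 55.1%. The shares over all entries were not counted under that scaling, and 14.8% and 3.07% are no background for these 2 counts. The median difference of members was 0.39 (interval 0.37 to 0.41), against 0.39 over all entries. Summing the entries of each locus gave 482 of 3359 member loci (14.3%) with a level 2-fold or more higher in dek37, beside 14.5% of all loci, and 86 (2.56%) with a lower one, beside 2.97%. Of the 669 higher entries, 113 lay at loci whose sum was not 2-fold higher, and the same held for 31 of the 130 lower entries.

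The loci were spread evenly. Between 9.94% and 11.5% of the loci of each of the 10 chromosomes had several entries, and between 5.49% and 8.75% of those with at least 10 RPKM in both libraries were switched.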

How the data were processed

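RNA-seq of endosperm was compared between 1 dek37 and 1 WT library. The authors deposited RPKM values, per the file headers. Bowtie 0.12.2 is named per the submitters' processing notes; the sources used here give no build, annotation, counting rule or filter. Both files list the same loci on all 56848 rows, and rows were matched by order. Library totals were read back from the commonest product of RPKM and span, taken as 1 read on an entry as long as its span. Reads and intervals rest on that assumption. Entry lengths (30 to 25000 bases, no longer than the span) and reads (1 or an even number) were the smallest that gave whole reads in both libraries, within a relative tolerance of 1e-09. Intervals count fragments of 2 reads, with 1 read taken as 0. No count model was fitted, because RPKM are not counts and no genotype has replicates. Entries at least 2-fold different on log2(RPKM + 1), with 10 RPKM or more in the higher library, were counted as differing. Scripts used Python 3.11.15, numpy 2.4.6, pandas 2.3.3 and scipy 1.17.1, and the statistics were tested on simulated data.

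Loci named were the 4 with the highest sum, the 6 supported switches with the largest change of share, the 4 widest spreads, the 3 largest joint increases and the 3 largest joint decreases, and the 2 loci with the most entries that reach 10 RPKM. Members, thresholds and lists were chosen with earlier results of these data known. Starts are printed 1-based, from deposited starts read as counted from 0. Alternatives were pseudocounts of 0.1 and 5 RPKM, floors of 1, 5 and 50 RPKM, 3 other scalings, a floor in both libraries, 2-entry loci alone, a 4-fold threshold and other definitions of a switch. The 31 entries that share a locus outside chromosomes 1 to 10 were left out. Medians over entries carry 95% order-statistic intervals that treat entries as independent, which those of a locus are not.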

Additional observations from a re-analysis of the deposited data

How the results depend on the processing

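No paired analysis was possible because there is only 1 dek37 and 1 WT library, and neither can be left out. The count of 195 switched loci of 2780 depends on the floor and on what is called a switch. It was 486 of 4739 loci at a floor of 1 RPKM and 44 of 798 at 50 RPKM. Of the 2780 loci it was 91 with the dominant entry taken by reads and 11 with a margin of 1.5 in each library. It was also 11 by counting intervals, a set chosen with the data in view, and 5 loci are in both sets of 11. Loci of 1 sign were 70.9%, 79.4% and 91.4% at floors of 1, 5 and 50 RPKM, and 75.1%, 78.0% and 77.2% under 3 other scalings: the median difference set to 0, an unweighted trimmed mean of log ratios, with trims of 30% on the ratio and 5% on the level, and sums made equal after leaving out the top 50 entries. These scalings lower every difference by 0.405, 0.272 and 0.308 before the pseudocount. The median spread was 0.40, 0.30 and 0.14 at those floors, 0.21 with a pseudocount of 5 and 0.20 with the floor in both libraries. Counts of members are out of 4248 unless another number is given, beside 669 higher and 130 lower as reported. Higher members numbered 431 with a pseudocount of 5, 1351 of 9005 at a floor of 1 and 195 of 1143 at a floor of 50. They numbered 323, 410 and 383 under the 3 scalings, 302 of 3207 with the floor in both and 109 at 4-fold. Lower members numbered 363 of 9005, 210 of 5911 and 49 of 1143 at floors of 1, 5 and 50. They numbered 263, 214 and 225 under the scalings, 61 of 3207 with the floor in both and 37 at 4-fold. Shares over all entries were not counted under these alternatives. The median of members was 0.34 with a pseudocount of 5, 0.35 and 0.42 at floors of 1 and 50, 0.0041, 0.13 and 0.098 under the scalings and 0.31 with the floor in both. The cause of these shifts was not tested, beyond the fewer or more entries that each floor admits. The other counts stayed within 1.5 times the reported ones. Higher members numbered 739 with a pseudocount of 0.1 and 943 of 5911 at a floor of 5 RPKM. Lower members numbered 140 and 91 with pseudocounts of 0.1 and 5. Switched loci numbered 283 of 3554 at 5 RPKM, 160 of 2411 in 2-entry loci and 186 of 2387 without entries at 1 read. They numbered 187 to 189 under the scalings, which were added after the data were seen.

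Of 220 values of 44 named entries under other pseudocounts and scalings, 22 changed sign, and scaling did so in every case. In the order median, trimmed mean and equal totals these were -0.17, -0.032 and -0.068 for entry 1 and -0.28, -0.14 and -0.18 for entry 2 at chromosome 1, 178476591; -0.20, -0.068 and -0.10 for entry 2 at chromosome 1, 297372423; -0.26, -0.14 and -0.17 for entry 1 at chromosome 1, 23241091; -0.22, -0.092 and -0.13 for entry 2 at chromosome 2, 11197500; -0.14, -0.021 and -0.053 for entry 2 at chromosome 8, 118529129; and -0.29, -0.16 and -0.19 for entry 2 at chromosome 7, 165824939. Entry 2 at chromosome 7, 172726699 was at -0.039 under the median scaling alone.

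Depth limits the low end, since 1540 members in dek37 and 1797 in WT stood at the value of 1 read.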
